A study of Coffea canephora with 12 samples.

Results

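*CcGH3.5* (locus Cc05_g06700, on chromosome 5) is named by the study as the coffee homolog of *JAR1*, the gene of *Arabidopsis* also called *AtGH3.11*. Its reads were followed here in *Coffea canephora* while leaves were led to form somatic embryos. The gene was taken by its locus name. It is 1 of the 18 *CcGH3* genes that the study identified, and 1 of the 25574 genes in the count tables. GH3 enzymes join small acidic hormones to amino acids. In *Arabidopsis*, JAR1 belongs to group I of the family and joins jasmonic acid to isoleucine, which gives the active jasmonate of wound, defence and fertility responses, whereas the enzymes of group II mainly conjugate auxin and so lower its free pool. The main gene table of the study names *AtGH3.11*/*JAR1* as the homolog, while the sequence sheet of the same study lists *AtGH3.10* beside this locus. Both are members of group I, and which of them is the closer homolog was not tested here.

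RNA was taken from leaves of in vitro plantlets and from leaf explants at 6 time points, with 2 libraries for each. Plantlets at 14 days before induction (dbi) were the control, on Murashige-Skoog (MS) salts without growth regulators. At 9 and 0 dbi they were on MS salts with naphthaleneacetic acid, a synthetic auxin, and kinetin, a cytokinin. The last 3 points, named in days after induction (dai), fell on days 1, 2 and 21, with the samples on Yasuda salts with benzyladenine, another cytokinin. Per the study's methods these samples were discs cut from the leaves and kept in liquid medium in the dark. The stage of the protocol, the cutting, the medium and the light therefore changed together between 0 dbi and 1 dai, and their parts in any difference cannot be told apart. According to the series' design text, both libraries of a point come from 1 biological sample sequenced in technical replicate, so the p-values of the steps, of 21 dai against 14 dbi and of all 6 points measure the spread between libraries and not that between plants. Those between the stages measure the spread between time points.

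The first 399 bases of the gene sequence in the study's sequence sheet were read here. An ATG at base 262 opens a reading frame that runs without a stop codon to the last base read, 138 bases or 46 codons with the ATG itself. That stretch is shown because it identifies the gene and starts at the presumed start of the coding sequence, with the start codon in capitals.
CcGH3.5 coding start (Cc05_g06700): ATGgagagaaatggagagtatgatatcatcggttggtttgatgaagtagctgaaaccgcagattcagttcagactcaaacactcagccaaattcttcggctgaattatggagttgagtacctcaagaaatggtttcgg
Over the first bases read for each gene, the longest exact run that *CcGH3.5* shared with any of the other 17 *CcGH3* genes was between 8 and 12 bases. Pairs of the *CcGH3.17* copies shared runs of up to 104 bases. Other pairs of these copies shared as few as 8, and *CcGH3.1a* and *CcGH3.1b* shared 219. Short runs were also found between other members, such as 10 bases for *CcGH3.9* with *CcGH3.17i*. In the stretches compared, then, no long run joined *CcGH3.5* to a relative, which was not particular to it.

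The libraries held between 10091539 and 36525500 reads in genes (median 22765039). A floor of 3 reads in a library stands for 0.0821 to 0.297 CPM (reads of a gene per 1000000 reads in genes), below every value of *CcGH3.5*. In 4 libraries, replicate 1 of 14 dbi, 0 dbi, 2 dai and 21 dai, between 17.6% and 20.3% of all reads were set aside for low mapping quality, against 11.2% to 12.7% in the other 8. The libraries of 9 dbi (17809 and 17204) and 1 dai (19116 and 18199) had fewer genes with a read than all others (19833 to 22257), and *CcGH3.5* was highest at the first of these points and among the lowest at the second. Values without the 4 libraries are given beside the results they touch. In that fit of 8 libraries, and wherever a library is left out, a time point with 1 library is assumed to vary like the points that keep both, which in the 8 are 9 dbi and 1 dai. The part of the lower number of genes detected in the results was not tested.

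*CcGH3.5* was high in the leaves before induction and low in the explants after it. Its read count ran from 2869 in replicate 1 of 9 dbi to 19 in replicate 1 of 21 dai. Its normalized count, which is the read count scaled to one effective library size, was 1811 and 596 in the control leaves of 14 dbi (replicate 1 first, here and below), 2999.8 and 2423 after the first days on hormones at 9 dbi, and 833 and 2115 on the day of induction. In explants it was 271 and 73.3 after 1 day, 672 and 351 after 2 days, and no more than 47.95 and 79.8 after 21 days. The 6 libraries before induction ranged from 596 to 2999.8 (median 1963), the 6 after it from 47.95 to 672 (median 175), and 5 of the first 6 lay above every library of the second. The exception was replicate 2 of 14 dbi, which lay below replicate 1 of 2 dai. By the study's account, explants bore their first embryogenic structures at 21 days, so the samples of 21 dai may not be leaf tissue alone. In tissue measured in bulk, fewer cells that use the gene and less of its RNA in each cell cannot be told apart.

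**Figure D1:**
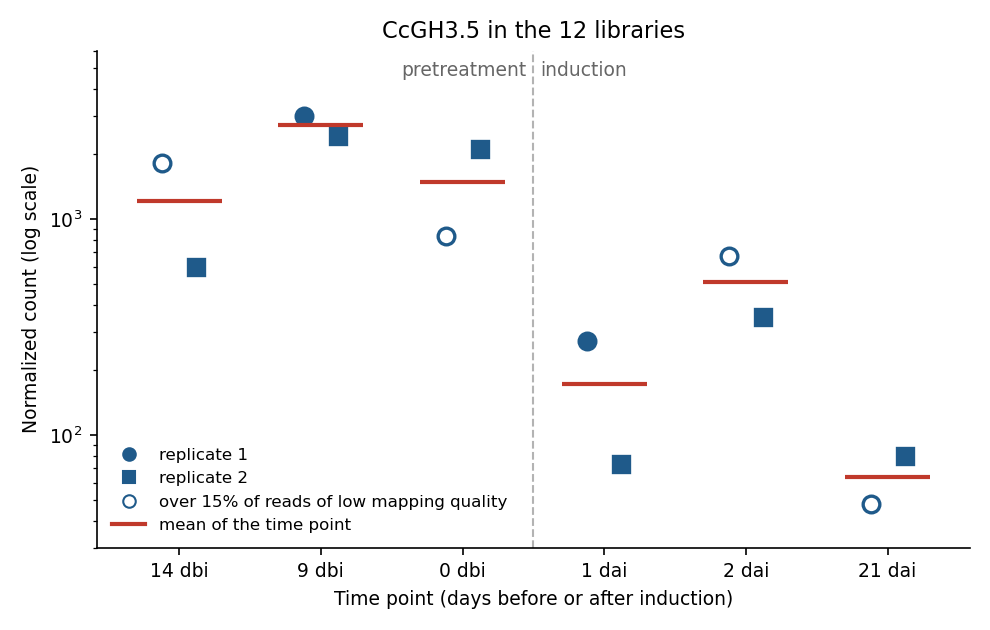
Normalized count of *CcGH3.5* (log axis) in each library at the 6 time points, with circles for replicate 1, squares for replicate 2, open symbols for libraries with over 15% of reads of low mapping quality, and a red bar for the mean. Both libraries of 9 dbi, at 2423 and 2999.8, sit above all others, and both libraries of 21 dai, at 47.95 and 79.8, sit near the bottom beside replicate 2 of 1 dai at 73.3.

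By their means, the time points ran from 9 dbi (2712 ± 408, SD, n = 2 libraries here and below) through 0 dbi (1474 ± 906), 14 dbi (1204 ± 858), 2 dai (511 ± 227) and 1 dai (172 ± 139) to 21 dai (63.9 ± 22.5). The highest mean was 42.4 times the lowest. The order is not resolved at each place. The libraries of 0 dbi and 14 dbi overlapped, as did those of 14 dbi and 2 dai, and those of 1 dai and 21 dai, while 9 dbi did not overlap 0 dbi and 2 dai did not overlap 1 dai. In the 8 libraries with few reads of low mapping quality, 14 dbi (596) lay below 0 dbi (2115), and in the other 4 it lay above it (1811 against 833). The fall from 0 dbi to 21 dai was present in both sets, from 2115 to 79.8 and from 833 to 47.95.

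The 2 libraries of a time point often differed by more than the counting of reads allows. The series' design text calls them technical replicates, and the reason for gaps beyond counting error was not tested. Replicate 1 of 14 dbi was 3.04 times replicate 2 (95% exact interval of the ratio 2.76 to 3.34, which covers counting error only, as all intervals here do), and replicate 1 of 1 dai was 3.69 times replicate 2 (2.83 to 4.85). At 0 dbi replicate 2 was the higher, by 2.54 times (2.32 to 2.79). The gaps were smaller at 2 dai (replicate 1 higher by 1.91 times, 1.72 to 2.13), at 21 dai (replicate 2 higher by 1.66 times, 1.02 to 2.87) and at 9 dbi (replicate 1 higher by 1.24 times, 1.17 to 1.31). Beside genes of like level at the same time point, these gaps were wide at 1 dai, 14 dbi, 2 dai and 0 dbi, where 94.7%, 93.4%, 90.3% and 88.3% of such genes differed less, and were ordinary at 21 dai and 9 dbi, where 42.8% and 42.3% did. The library with more reads of low mapping quality was the higher one at 14 dbi and 2 dai and the lower one at 0 dbi and 21 dai. Over the whole fit, the coefficient of variation termed biological was 0.499 for *CcGH3.5*, against a median of 0.458 over the genes tested. By the design text it holds the spread between libraries and not that between plants.

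As CPM, *CcGH3.5* reached 139.7 (95% exact interval 134.6 to 144.9) in replicate 1 of 9 dbi and 1.88 (1.13 to 2.94) in replicate 1 of 21 dai, a library in which the gene had 19 reads. Its place among all genes moved accordingly. It ranked 1429 and 2074 at 9 dbi, within the top 8.02% and 12.1% of the genes detected in those libraries. Its ranks in the libraries of 14 dbi were 3196 and 8348, and in those of 0 dbi 6818 and 2441. The explants of 1 dai put it at 11791 and 15201, those of 2 dai at 7905 and 11026, and those of 21 dai at 16557 and 16191, where 81.3% and 72.7% of the detected genes were at or above it. The best rank after induction (7905) was thus only a little ahead of the worst before it (8348). Per kilobase of gene, introns included, the ranks ran from 1717 at best in replicate 1 of 9 dbi to 17492 in replicate 1 of 21 dai, so the scale did not change which libraries stood at the ends.

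The 5 steps between adjacent time points ask when the level moved. Each was tested with edgeR's quasi-likelihood test over 20745 genes with Benjamini-Hochberg adjustment, and 1 of the 5 steps passed an adjusted p of 0.05 for *CcGH3.5*. From 14 to 9 dbi, over the first days on auxin and cytokinin, the mean was 2.25 times higher, a log2 fold change of 1.17 (SE 0.71) with adjusted p = 0.477. In this step 0.535% of all genes passed, and 1640 genes had a larger increase. From 9 to 0 dbi the log2 fold change was -0.88 (SE 0.70, adjusted p = 0.662), although the libraries did not overlap, with 0.130% of genes passing. In the 8 libraries with few reads of low mapping quality the values were 2.18 (adjusted p = 0.680) and -0.36 (adjusted p = 1.00). Neither change within the pretreatment could be told from the spread between libraries.

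From 0 dbi to 1 dai, the step in which leaves were cut and moved to the induction medium, *CcGH3.5* fell. All libraries of 1 dai (271 and 73.3) lay below those of 0 dbi (833 and 2115), and the log2 fold change was -3.11 (SE 0.76, adjusted p = 0.0361), which is 8.61 times lower. Here 7.82% of the genes tested passed, lower ones being 4.89% of the genes tested, and 1855 genes (8.94%) had a more negative fold change. The call was lost with 7 of the 12 libraries left out in turn. Without replicate 2 of 1 dai the adjusted p was 0.207 (log2 fold change -2.48), without replicate 2 of 0 dbi 0.0994 (-2.28) and without replicate 1 of 1 dai 0.0682 (-4.33), and without a library of 2 or 21 dai it was 0.0511 to 0.0534. In the 8 libraries with few reads of low mapping quality the log2 fold change was -3.63 with adjusted p = 0.0693, and with a term for the share of such reads in all 12 it was -3.06 with adjusted p = 0.0569. The fall was present in every one of these fits, but its place below the threshold was not.

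From 1 to 2 dai the mean normalized count was 2.97 times higher and the libraries did not overlap, but with a log2 fold change of 1.58 (SE 0.72) the adjusted p was 0.601. No gene passed the edgeR test in this step (0%), though 1760 genes had an edgeR p under 0.05 before adjustment, *CcGH3.5* not among them, and DESeq2 called 212 genes. In the 8 libraries with few reads of low mapping quality the log2 fold change was 1.04 (adjusted p = 1.00). From 2 to 21 dai the level was lower again, from 672 and 351 to 47.95 and 79.8, with a log2 fold change of -2.97 (SE 0.77). The adjusted p was 0.0938 against a background of 1.33% of genes passing, so the step was not called, and only 527 genes (2.54%) had a more negative value. DESeq2 gave an adjusted p of 0.0031 for it, and a fit of the 4 libraries of 2 and 21 dai alone gave 0.0076. Both called far more genes in this step than the main fit, 1668 of 20745 and 2730 of 20021. In the 8 libraries with few reads of low mapping quality, where 1 library is left for each of these time points and the spread comes from other points, the log2 fold change was -2.14 (adjusted p = 0.833).

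**Figure D2:**
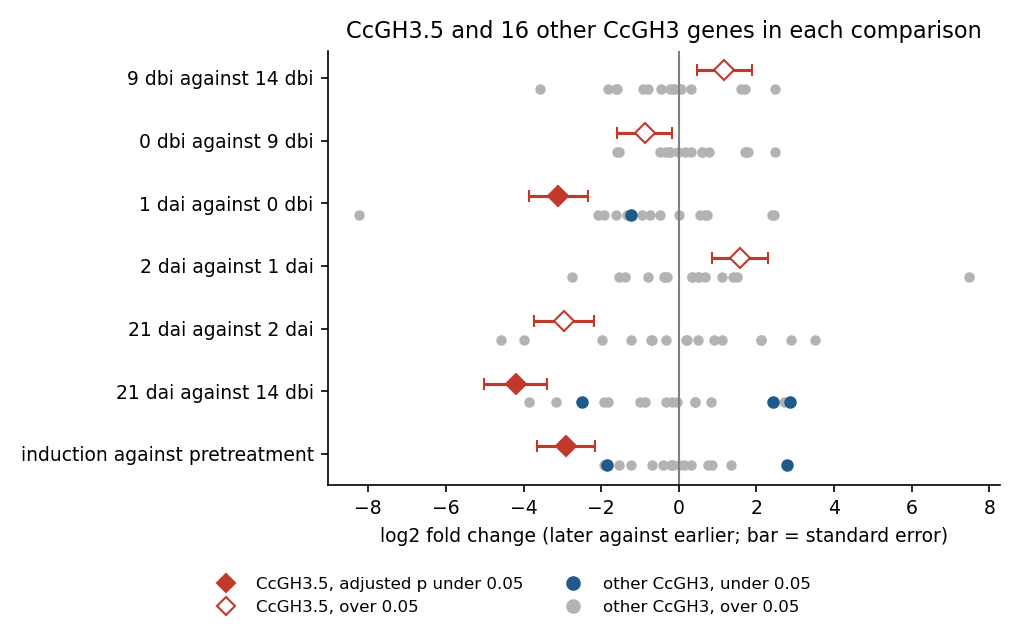
Log2 fold change (bar, standard error) of *CcGH3.5* (diamonds, filled where the adjusted p was under 0.05) and of the 16 other *CcGH3* genes tested (dots, blue where called) in the 5 steps, in 21 dai against 14 dbi, and in induction against pretreatment. *CcGH3.5* lies at -3.11 at the step into induction, at -4.20 from 14 dbi to 21 dai and at -2.91 between the stages.

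Between the ends of the series, *CcGH3.5* was 18.4 times lower at 21 dai than in the control leaves of 14 dbi. The log2 fold change was -4.20 (SE 0.81, adjusted p = 0.0081), where 13.7% of the genes tested passed, lower ones being 7.42% of the genes tested, and 609 genes (2.94%) had a more negative value. This was the most negative value of the 17 *CcGH3* genes tested. It was called with 11 of the 12 libraries left out in turn, but without replicate 1 of 21 dai the adjusted p was 0.0861 (log2 fold change -3.91), and in the 8 libraries with few reads of low mapping quality, in which 14 dbi is left with its lower library, it was 0.169 (-2.90). Over all 6 time points at once the F test gave an adjusted p of 0.0068, with 21.9% of genes passing, and this call held in all 20 alternatives (adjusted p from 1.7e-09 to 0.0470).

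Summing the 2 libraries of each time point and setting the 3 time points after induction against the 3 before it gave a log2 fold change of -2.91 (SE 0.74), 7.52 times lower, with adjusted p = 0.0498 over 19990 genes, of which 11.0% passed and 5.58% did so in the lower direction. This call lay at the threshold and was lost in 8 of 13 alternatives (adjusted p up to 0.175), with the log2 fold change between -3.94 and -2.44 in all of them. Leaving out a time point gave an adjusted p of 0.0494 without 21 dai and 0.0504 to 0.131 without any other. The median of all genes moved by -0.12, 0.17, -0.13, 0.08 and 0.01 in the 5 steps and by 0.07 and 0.08 in the other comparisons. Relative to it, the log2 fold change of *CcGH3.5* was 1.29 from 14 to 9 dbi, -1.04 from 9 to 0 dbi and -2.97 from 0 dbi to 1 dai.

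Within its family, *CcGH3.5* went from the gene with the most reads to one of the minor ones. Over the 12 libraries it had 11691 of the 61760 reads of the 18 *CcGH3* genes (18.9%), the largest total of any. The next were *CcGH3.17i* with 10496, *CcGH3.17e* with 8409 and *CcGH3.17d* with 5709, all named after *AtGH3.17*, which in *Arabidopsis* joins auxin to amino acids. Read totals depend on the length of a gene as well as on its level. Per kilobase of gene, introns included, the median CPM over the libraries was 7.68 for *CcGH3.5*, below 13.9 for *CcGH3.17e* and 10.8 for *CcGH3.17i*. This scale lowers genes with long introns, so the order of these genes per transcript was not resolved.

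The share of *CcGH3.5* in the reads of the family was 44.4% (95% exact interval 43.2 to 45.6) and 38.9% (37.7 to 40.2) at 9 dbi, the highest of the series. The control leaves of 14 dbi gave 26.0% and 12.6%, those of 0 dbi 17.6% and 26.8%. The share was 6.65% and 2.24% a day into induction, 18.5% and 8.49% on the next, and 0.748% (0.451 to 1.17) and 1.61% (1.33 to 1.93) in the explants of 21 dai. It had the most reads of the family in 4 libraries, all before induction, and it was 13th and 11th of the 18 genes at 21 dai. In the other libraries the lead was held by *CcGH3.17e* (replicate 2 of 14 dbi), *CcGH3.17i* (replicate 1 of 0 dbi and of 2 dai), *CcGH3.17d* (both of 1 dai, and replicate 2 of 2 dai and of 21 dai) or *CcGH3.6b* (replicate 1 of 21 dai).

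**Figure D3:**
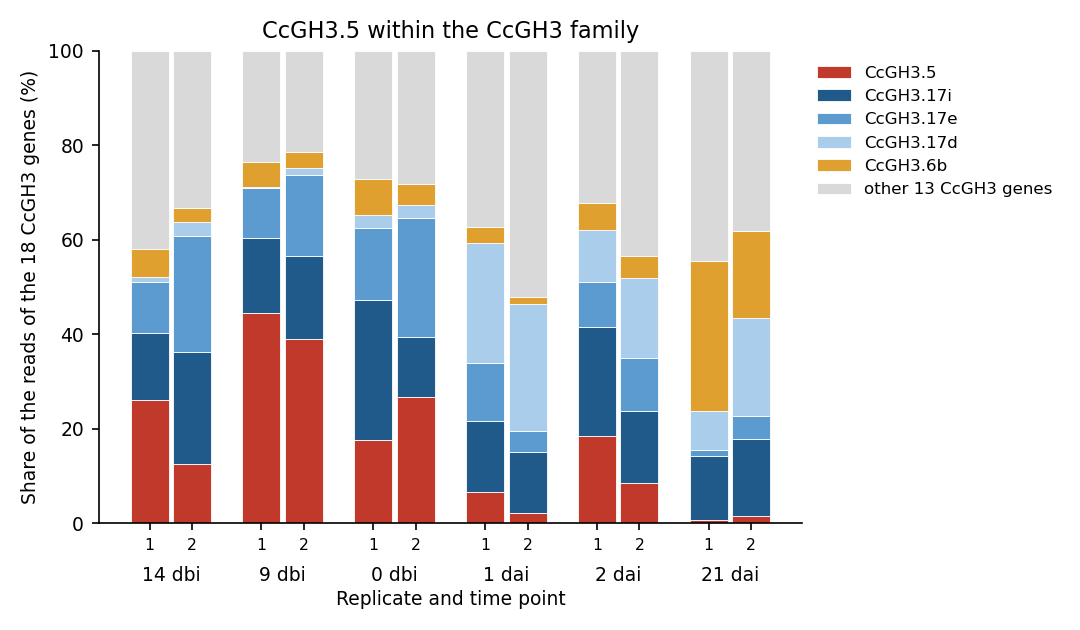
Share (%) of the reads of the 18 *CcGH3* genes held by *CcGH3.5*, by the next 3 genes in read total, by *CcGH3.6b* and by the other 13 together, in each library (stacked bars that add up to all *CcGH3* reads). The red part at the base, *CcGH3.5*, is widest at 9 dbi (44.4% and 38.9%) and is hardly visible at 21 dai (0.748% and 1.61%), where *CcGH3.6b* takes 31.9% and 18.5%.

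The mean share was 27.7% ± 12.2 (SD, n = 3 time points) before induction and 6.38% ± 6.39 after it, a difference of -21.3 percentage points. The 3 means before induction were all above the 3 after it, and the exact permutation test over time points (two-sided) gave p = 0.1, the smallest it can give with 3 against 3. The single libraries overlapped. Replicate 2 of 14 dbi (12.6%) and replicate 1 of 0 dbi (17.6%) lay below replicate 1 of 2 dai (18.5%). Among the 9 genes that are not copies of *CcGH3.17*, the share was 58.5% ± 12.9 before and 22.5% ± 18.5 after induction. With reads divided by gene length, introns included, the share among all 18 genes was 18.4% ± 9.40 and 4.38% ± 4.33. The sum over the other 17 genes went with *CcGH3.5* at some points and not at others. Their mean normalized count together was 4647 ± 727, 3781 ± 34.2 and 4845 ± 1317 (SD, n = 2 libraries) at 14, 9 and 0 dbi. At 1, 2 and 21 dai it was 3498 ± 425, 3368 ± 587 and 5625 ± 1043. From 0 dbi to 1 dai, where the mean of *CcGH3.5* went from 1474 to 172, the sum went from 3914 and 5776 to 3798 and 3197. This smaller change of the sum was not tested. The sum was lower at 9 dbi, where *CcGH3.5* peaked, than at 14 or 0 dbi. Its mean was highest at 21 dai, where *CcGH3.5* was lowest, but the libraries there (6362 and 4887) overlapped those of 14 and 0 dbi.

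Among the other 16 *CcGH3* genes that passed the filter on low counts (the 17th, *CcGH3.6a*, had 21 reads in all), none passed the test in the 4 steps in which *CcGH3.5* did not pass, where over all genes 0.535%, 0.130%, 0% and 1.33% did. In the step from 0 dbi to 1 dai only *CcGH3.17i*, 1 of 16, passed beside *CcGH3.5*, with a log2 fold change of -1.23 (SE 0.33, adjusted p = 0.0471), and 1 of 16 is close to the 7.82% called over all genes. That call was lost in 15 of 21 alternatives. The median of the 16 in this step was -0.85, against -0.13 over all genes tested, and *CcGH3.1b*, with a value of -8.24 (SE 2.58, adjusted p = 0.0785), was the only one with a more negative value than *CcGH3.5*. *CcGH3.1b* had 4 and 473 reads at 0 dbi and 1 and 0 at 1 dai. Its value thus rests on 1 library of 0 dbi set against counts at the floor.

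From 14 dbi to 21 dai 3 of 16 passed, 1 lower and 2 higher, against 7.42% lower and 6.32% higher over all genes. *CcGH3.17e* fell with *CcGH3.5*, from a mean normalized count of 962 to 169 (log2 fold change -2.49, SE 0.73, adjusted p = 0.0469). *CcGH3.17d* rose from 105 to 772 (2.87, SE 0.73, adjusted p = 0.0282), and *CcGH3.6b*, named after an auxin-conjugating enzyme of *Arabidopsis*, rose from 276 to 1482 (2.43, SE 0.68, adjusted p = 0.0412). These 3 calls were less steady than that of *CcGH3.5*, being lost in 8, 6 and 8 of 21 alternatives against 2. The median of the 16 was -0.25, against 0.07 over all genes. Between the stages, where 5.40% of all genes were called higher, *CcGH3.17e* was lower (-1.86, SE 0.35, adjusted p = 0.0236) and *CcGH3.17d* higher (2.80, SE 0.49, adjusted p = 0.0210) after induction, calls that were lost in 6 and 4 of 13 alternatives, and *CcGH3.5* had the most negative value of the 17.

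By the series' design text the 12 libraries come from 6 samples. Across them the family ranged from *CcGH3.17e* (Pearson's r = 0.87 with *CcGH3.5* on log2 of the normalized count plus 1) and *CcGH3.1b* (r = 0.81) to *CcGH3.17d* (r = -0.82). *CcGH3.1b* had reads in only 10 of the 12 libraries. Among all 20744 other genes tested, r was over 0.9 for 110 and had a median of -0.10. The most alike was Cc07_g16310 on chromosome 7 (r = 0.97, Spearman's rho = 0.93), with mean normalized counts of 4104, 5631 and 4590 before induction and 1147, 2178 and 642 after it. Next was Cc01_g06550 on chromosome 1 (r = 0.96, rho = 0.94), with 744, 1080.4 and 1028 before and 414, 507 and 247 after. Both had the order of *CcGH3.5* after induction, lowest at 21 dai and highest at 2 dai, and were highest at 9 dbi. Their range was narrower, from 495 to 6562 over the libraries for Cc07_g16310 and from 215 to 1177 for Cc01_g06550. The annotation gives these loci no description. All genes were read in the same libraries, which differ in depth and mapping quality, so r is a description only.

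The most opposite profiles were those of Cc03_g00980 on chromosome 3 (r = -0.94, rho = -0.90), which lay between 1576 and 2680 in all libraries, and of Cc05_g04980 on chromosome 5 (r = -0.93, rho = -0.90). The latter had no read in any library before induction and mean normalized counts of 67.0, 1.98 and 120.3 at 1, 2 and 21 dai, from 325 reads in all. Its reads were thus nearly all from the time points at which *CcGH3.5* was lowest.

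**Figure D4:**
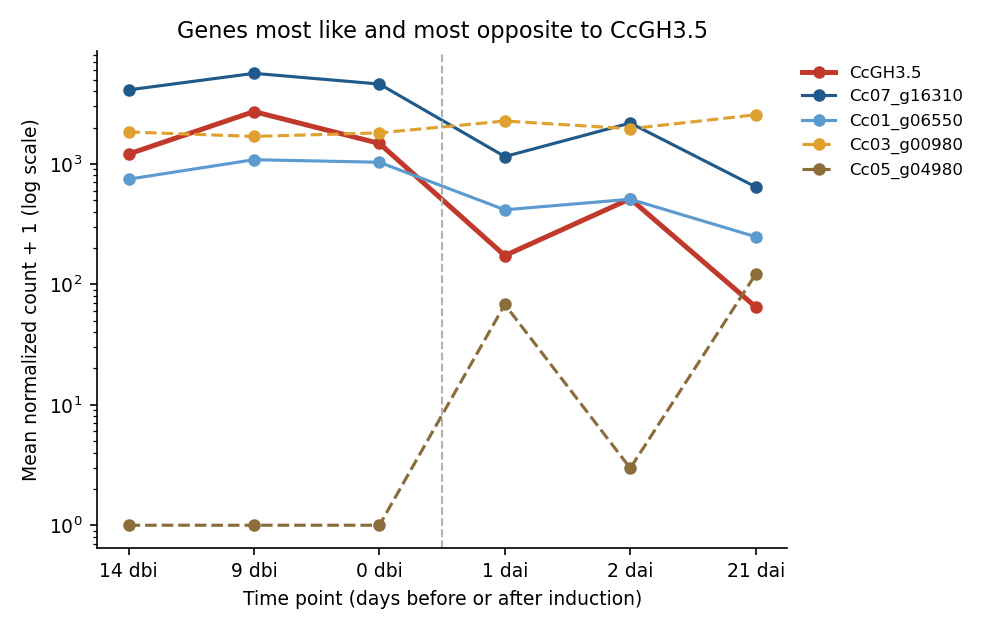
Mean normalized count plus 1 (log axis, means of 2 libraries) of *CcGH3.5* and of the genes most alike (solid lines) and most opposite (dashed lines) at the 6 time points. Cc07_g16310 and Cc01_g06550 peak at 9 dbi, dip at 1 dai and end lowest at 21 dai as *CcGH3.5* does, over a narrower range, while Cc05_g04980 is at 0 before induction.

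On chromosome 5, the gene after *CcGH3.5* did not share its course, and the gene before it could not be compared. Cc05_g06690, the gene before *CcGH3.5*, had no read in any of the 12 libraries. Cc05_g06710, the gene after it, had 3520 reads, and its normalized count lay between 143 and 616 (median 222) with r = 0.11. Its highest library, replicate 2 of 9 dbi at 616, was one of those in which *CcGH3.5* was high, but the other library of that time point stood at 209, and at 21 dai, where *CcGH3.5* was near its lowest, Cc05_g06710 had 204 and 198.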

How the data were processed

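Read counts per gene were deposited by the authors for 12 single-end libraries, 1 table of 25574 genes each. The submitters' processing notes name FastQC 0.11.5, cutadapt 1.14 and HTSeq 0.10.0. No aligner, genome build or strand setting is given in the sources used here. Lines for unassigned reads were left out of library sizes, and 29.2% to 59.9% of all reads were in genes. Reads of low mapping quality were set aside in the counting, so reads shared by near-identical copies, such as those of *CcGH3.17*, may be missing from the family totals. Chromosome, gene order and gene span came from the RefSeq table of AUK_PRJEB4211_v1, which matched all 25574 locus names. It holds no descriptions, so lists of jasmonate genes and leaf markers could not be applied.

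Counts were tested in R 4.3.3 with edgeR 4.0.16 (TMM scaling, filterByExpr, quasi-likelihood F test, time point as factor, all 12 libraries), with DESeq2 1.42.0 as an alternative. A gene passed at an adjusted p under 0.05. For the stages, libraries were summed per time point. The fitting code was first tested on simulated data, for which no value is given. *CcGH3.5*, the *CcGH3* genes, the neighbours and the 2 most and 2 least correlated genes were named by rule. The gene and the lists were chosen with earlier results of these data known.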

Additional observations from a re-analysis of the deposited data

How the results depend on the processing

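Every fold change of *CcGH3.5* kept its sign in all alternatives: DESeq2, RLE size factors, library size alone, 2 other filters, a replicate block, a term for reads of low mapping quality, the 8 libraries with few such reads, the 4 libraries compared, and each library left out. The fall from 0 dbi to 1 dai missed the threshold with the term for low mapping quality (-3.06, adjusted p = 0.0569), in the 8 libraries (-3.63, 0.0693) and in the 4 libraries compared (-3.12, 0.0990), and lay between -4.33 and -2.28 with 1 library left out (adjusted p 0.0287 to 0.207). From 2 to 21 dai it passed with DESeq2 (-2.96) and in the 4 libraries compared (-2.99), and lay between -3.41 and -2.43 with 1 library left out. From 14 dbi to 21 dai it missed the threshold in the 8 libraries (-2.90) and lay between -4.79 and -3.19 with 1 library left out. The fall between the stages missed it with library size alone (-2.80, 0.0560), with replicate 1 alone (-2.57, 0.175) or replicate 2 alone (-3.34, 0.0605), and without 14 dbi (-3.21, 0.0909), 9 dbi (-2.44, 0.127), 0 dbi (-3.05, 0.114), 1 dai (-2.71, 0.131) or 2 dai (-3.94, 0.0504). With library size alone and with the term for low mapping quality all libraries were fitted, and the cause was not tested; all other fits that missed the threshold held fewer libraries or time points. The share among the 9 genes other than *CcGH3.17* fell by 36.0 percentage points.

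With the replicate number as a block, the log2 fold changes of *CcGH3.5* were 1.27, -0.75, -3.34, 1.64 and -2.83 in the 5 steps and -4.01 from 14 dbi to 21 dai, and no call changed. By the rule that every correlation of deviations between same-numbered libraries be over 0.1, the numbers did not pair the libraries, since 5 of 15 were. All 5 (0.245 to 0.383) were among the 6 pairs of 14 dbi, 0 dbi, 2 dai and 21 dai, the time points whose replicate 1 had many reads of low mapping quality. The block moved the count of genes called from 111 to 17 (9 dbi against 14 dbi) and from 27 to 2 (0 dbi against 9 dbi), and by less than 1.5 times elsewhere.

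The counts behind the background shares moved more than the fold changes. DESeq2 called 1579, 1108, 3623, 212 and 1668 genes in the 5 steps, where edgeR called 111, 27, 1623, 0 and 275, and 4868 against 2851 from 14 dbi to 21 dai, 8222 against 4546 over all time points and 4528 against 2195 between the stages. Leaving out 1 library gave 20 to 2276 genes from 0 dbi to 1 dai, 0 to 712 from 2 to 21 dai and 835 to 3731 from 14 dbi to 21 dai. With 19 reads in replicate 1 of 21 dai, the level of *CcGH3.5* there is known only to within its interval.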
